A study of Mus musculus with 12 samples.

Results

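The genotype difference of the 3 h LPS response asks how far the early response of macrophages to lipopolysaccharide (LPS) differed between Commd1 knockout (KO) and wildtype (WT) cells. It is the interaction of the design, the log2 change from untreated to 3 h in KO minus the same change in WT, and its members are the 8 arrays of those 4 groups out of 12 arrays in the series. Bone marrow from 2 WT and 2 Commd1 KO mice was cultured over 10 days in 20 ng/mL GM-CSF, which drives myeloid growth and which every group received. The groups were WT untreated, KO untreated, WT with 10 ng/mL LPS for 3 h and KO with 10 ng/mL LPS for 3 h, with 1 array for each of 2 mice in a group. The cells of each mouse were divided between the times, so replicate 1 is the same mouse in the untreated and the LPS group of a genotype. Strain, age and sex of the mice and the form of the Commd1 deletion are not given in the sources used here.

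LPS from Gram-negative bacteria is sensed by the receptor TLR4 with its partners CD14 and MD-2. The adaptor MyD88 leads to NF-kB and MAP kinases and to cytokines such as interleukin-1 beta, while the adaptor TRIF leads to interferon beta, which acts back on the cell to induce interferon-stimulated genes. COMMD1 belongs to the CCC complex, which recycles membrane proteins from endosomes, and it is also known for limiting NF-kB by promoting the turnover of its subunit RelA. A response measured as a change from untreated can differ between genotypes for either of 2 arithmetic reasons, a different level before LPS (the baseline) or a different level reached after it (the induced level). The interaction equals the induced difference minus the baseline difference, KO minus WT in each, so all 3 values are given for each gene below.

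The share of probes well above background was 72.0% to 72.9% in WT untreated and 65.7% to 69.3% in KO untreated. At 3 h it was 69.2% to 69.9% in WT and 64.1% to 66.5% in KO, so it was lower in KO at both times. No spot was saturated. All 10 macrophage markers, among them Cd68, Adgre1 and Csf1r, were well above background in all 4 groups. Levels are given throughout on the log2 scale with 0 at the 75th percentile of the array. Commd1 stood at 2.72 and 2.79 in WT untreated, -0.50 and -0.01 in KO untreated, 2.73 and 2.70 in WT at 3 h, and -0.48 and 0.07 in KO at 3 h. The genotypes did not overlap at either time, and the interaction of Commd1 was 0.09 ± 0.32 (SE, 2 arrays in each group; limma adjusted p = 0.951). Each time lay on a slide of its own and, on each slide, WT at positions 1 and 2 and KO at positions 3 and 4. Time and slide, and genotype and position, therefore cannot be told apart. The slope of spike-in signal against amount, both in log2, was 0.735 to 0.743 on the 4 WT arrays and 0.794 to 0.799 on the 4 KO arrays. These are bulk samples, in which fewer cells of a type and less RNA per cell cannot be told apart. The 2 arrays of a group come from separate mice.

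Very few genes passed the test of the interaction. Of 22992 genes tested with limma, 8 were called at a Benjamini-Hochberg adjusted p under 0.05, or 0.0348% of genes. The change was more positive in KO for 6 (among them Cd200, Slamf8, Npas4, Ttll2 and Sox7; 0.0261% of genes) and more negative for 2 (Cxcl10 and Vgll4; 0.0087%). The split turned to 4 positive and 17 negative without WT 3 h replicate 1, to 4 and 12 without WT 3 h replicate 2 and to 1 and 3 without WT mouse 1. At an unadjusted p under 0.05 there were 2858 genes (12.4%), 1515 positive (6.59%) and 1343 negative (5.84%). The responses themselves were broad, with 10694 genes called in WT (46.5%; 23.2% rose and 23.3% fell) and 11977 in KO (52.1%; 26.4% rose and 25.7% fell). Across the 19418 genes well above background in all 4 groups, the KO response correlated with the WT response with Pearson's r of 0.95 and a slope of 1.06. Genes are not independent replicates, and the points share arrays. The slope was 0.99 once each array's values were divided by its relative spike-in slope, which was 1.075 times as high in KO as in WT, and this setting raised the calls from 8 to 19 (11 positive, 8 negative).

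The genotypes differed in more genes before LPS than after it by the adjusted test. KO against WT gave 1550 calls in untreated cells (6.74% of genes, 858 higher in KO and 692 lower) and 381 after 3 h (1.66%, 243 higher and 138 lower). The 3 h split turned to 3 higher and 23 lower without WT 3 h replicate 1, to 12 and 39 without WT 3 h replicate 2, to 9 and 10 without either KO untreated array, and to 5 and 10 or 1 and 14 without WT mouse 1 or 2. The untreated split turned to 70 and 113 without WT untreated replicate 2, and to 8 and 11 or 3 and 11 without WT mouse 1 or 2. At an unadjusted p under 0.05 the counts were close to each other, 5720 (24.9%) and 5587 (24.3%). The order of the adjusted counts turned without KO 3 h replicate 2 (2040 untreated and 2926 at 3 h) and without all arrays of KO mouse 2 (2782 and 4161). Without all arrays of WT mouse 1 or WT mouse 2, the untreated count was 19 or 14 and the 3 h count 15 in each case. Among the 19418 genes measured in all 4 groups, 675 (3.48%) differed at least 2-fold between the genotypes in untreated cells and 290 (1.49%) after 3 h. The SD of the genotype difference across these genes was 0.40 in untreated cells and 0.34 after 3 h on the log2 scale. Across genes the baseline and induced differences correlated with r of 0.56.

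**Figure D1:**
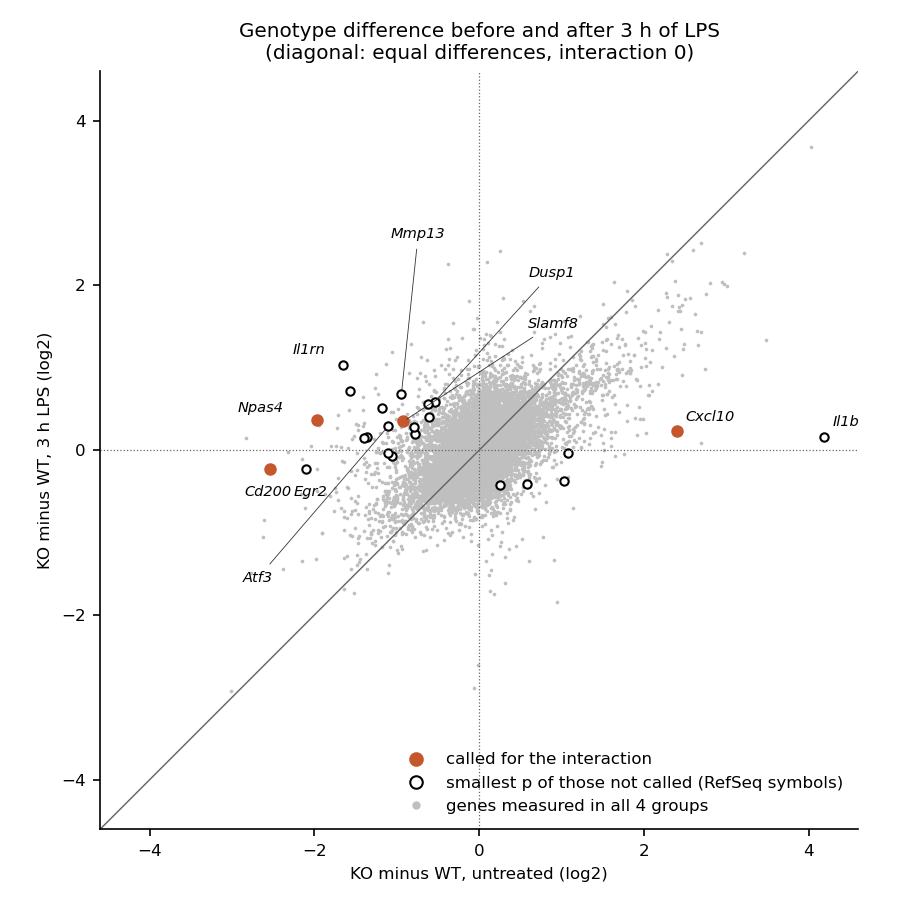
KO minus WT in untreated cells (horizontal axis, log2) against KO minus WT after 3 h of LPS (vertical axis, log2) for the 19418 genes measured in all 4 groups, each point the difference of means of 2 arrays. Filled orange circles are genes called for the interaction and open circles the RefSeq-matched genes with the smallest p of those not called; Cxcl10 (2.40, 0.23) and Cd200 (-2.54, -0.23) lie far from 0 along the horizontal axis and close to 0 along the vertical one.

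Genes called for the baseline mostly kept the sign of their difference and lost much of its size, and the reverse held for genes called for the induced level. Of 1418 genes called in untreated cells and measured in all 4 groups, 1211 (85.4%) differed in the same direction after 3 h, and the median absolute difference was 0.73 untreated and 0.37 after 3 h. Of 346 genes called after 3 h, 283 differed in the same direction in untreated cells, and the median was 0.77 after 3 h and 0.40 untreated. Genes chosen by a test at one time tend to look larger there, so each of these pairs of medians is a description. By the tests, 1396 genes (6.07%) differed between genotypes at baseline only, 227 (0.987%) at the induced level only, 152 (0.661%) at both in the same direction and 2 (0.0087%) at both in opposite directions. The remaining 21215 genes (92.3%) were called at neither time.

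Among the 2858 genes with an unadjusted interaction p under 0.05, baseline and induced differences contributed about equally often. The absolute baseline difference was at least 2 times the induced one in 1042 genes (36.5%), the induced difference at least 2 times the baseline one in 946 (33.1%), and neither in 870 (30.4%). Over all genes tested the shares were 27.3%, 27.2% and 45.5%. Of the 2858 genes, 820 rose in both genotypes and more in KO, 120 rose in both and less in KO, 840 fell in both and more in KO, and 95 fell in both and less in KO. A further 369 passed as a rise in KO alone, 249 as a fall in KO alone, 80 as a rise in WT alone and 143 as a fall in WT alone. The calls were opposite in the genotypes for 11 genes that fell in WT and rose in KO and for 6 that rose in WT and fell in KO. These counts of directions were not made over all genes, nor again with division by the spike-in slope. That division took the slope of the KO response on the WT response from 1.06 to 0.99. With quantile normalization, normexp or the deposited value table the slope stayed at 1.06. Whether the counts reflect a larger response in KO was not tested.

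By the tests, the 8 called genes differed mainly before LPS. In 7 of them KO differed from WT in untreated cells and passed no test after 3 h. The remaining 1 (Vgll4) differed at both times in opposite directions. Since the interaction is made from these same differences, the classes describe the calls and do not test them. Sox7 was well above background in neither genotype at 3 h, so no 3 h difference could be measured for it. Signals not well above background also enter the 3 h difference of Vgll4 and the untreated differences of Sox7 and Ttll2, in KO each time. All 8 had an adjusted interaction p of 0.0319. The 4 that were well above background in all 4 groups were Cxcl10, Cd200, Slamf8 and Npas4, and the 250 bases before their start sites are printed here because these are the genes with a measured level on both sides of each comparison. Their promoters are those of RefSeq on GRCm38.p6, 5′ to 3′ on the gene's strand, and all 4 genes lie on the minus strand. Capitals mark matches, on either strand, to the interferon-stimulated response element (ISRE, GAAA on both sides of any 2 bases), AP-1 (TGANTCA), the cAMP response element (CRE, TGACGTCA), the sterol response element (ATCAC, any base, CCAC), the NF-kB consensus or the CArG box.
Cxcl10 chr5:92348890-92349139: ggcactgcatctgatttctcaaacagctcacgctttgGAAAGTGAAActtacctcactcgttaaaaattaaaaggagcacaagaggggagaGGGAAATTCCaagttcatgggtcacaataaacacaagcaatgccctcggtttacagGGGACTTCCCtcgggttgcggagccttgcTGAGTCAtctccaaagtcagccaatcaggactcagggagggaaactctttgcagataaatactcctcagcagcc
Cd200 chr16:45409054-45409303: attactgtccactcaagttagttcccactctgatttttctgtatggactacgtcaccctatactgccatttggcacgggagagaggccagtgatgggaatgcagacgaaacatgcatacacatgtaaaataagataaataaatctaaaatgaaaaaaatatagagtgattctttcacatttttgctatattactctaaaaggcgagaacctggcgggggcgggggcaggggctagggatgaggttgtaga
Slamf8 chr1:172590569-172590818: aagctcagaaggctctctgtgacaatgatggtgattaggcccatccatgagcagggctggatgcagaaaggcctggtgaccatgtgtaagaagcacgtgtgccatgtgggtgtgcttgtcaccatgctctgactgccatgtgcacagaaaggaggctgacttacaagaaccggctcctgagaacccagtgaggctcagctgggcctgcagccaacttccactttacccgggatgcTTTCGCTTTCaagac
Npas4 chr19:4989972-4990221: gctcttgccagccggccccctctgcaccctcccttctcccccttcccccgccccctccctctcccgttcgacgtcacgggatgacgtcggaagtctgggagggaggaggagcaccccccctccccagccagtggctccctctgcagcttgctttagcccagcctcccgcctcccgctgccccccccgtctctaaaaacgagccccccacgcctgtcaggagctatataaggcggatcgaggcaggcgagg
In Cxcl10 the capitals mark an ISRE from -213 to -204, NF-kB matches from -159 to -150 and from -103 to -94, and an AP-1 match from -74 to -68, counted back from the start site. In Slamf8 they mark an ISRE from -15 to -6 on the other strand, and the windows of Cd200 and Npas4 held none of these letters. Of 27025 promoters of this length, 3.04% held the ISRE, 3.75% the NF-kB consensus, 6.87% AP-1, 1.62% the CRE, 1.4% the CArG box and 0.196% the sterol response element.

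Cxcl10 encodes an interferon-inducible chemokine that draws T and NK cells through the receptor CXCR3. Its probe lies on mm9 chromosome 5, 92775781 to 92775840. Levels were -1.71 and -2.28 in WT untreated and 0.38 and 0.43 in KO untreated, and 7.37 and 7.47 in WT and 7.69 and 7.61 in KO at 3 h. Both KO samples lay above both WT samples at each time, by a wide gap before LPS and a narrow one after it. KO was 5.27-fold above WT at baseline (2.40 on the log2 scale, limma adjusted p = 0.00149), while the induced difference was 0.23 (adjusted p = 0.418). Cxcl10 rose by 9.42 ± 0.16 in WT and by 7.25 ± 0.16 in KO (SE), and the interaction was -2.17 ± 0.23. By mouse the rise was 9.08 and 9.75 in WT and 7.32 and 7.18 in KO.

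Cd200 encodes a surface glycoprotein that restrains myeloid cells through the receptor CD200R (probe on mm9 chromosome 16, 45382387 to 45382446). Its levels were -1.64 and -1.61 in WT untreated and -4.37 and -3.97 in KO untreated, and 3.102 and 2.87 in WT and 2.91 and 2.60 in KO at 3 h. The untreated groups stood apart and the 3 h groups overlapped. Cd200 was 5.83-fold lower in KO at baseline (-2.54, adjusted p = 0.00149), with an induced difference of -0.23 (adjusted p = 0.413). It rose by 4.62 ± 0.16 in WT and by 6.93 ± 0.16 in KO, an interaction of 2.31 ± 0.23.

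Slamf8 encodes a SLAM family receptor of myeloid cells (probe on mm9 chromosome 1, 174512067 to 174512126). Levels of Slamf8 were -0.16 and -0.06 in WT untreated, -0.9994 and -1.07 in KO untreated, 1.55 and 1.48 in WT at 3 h and 1.97 and 1.76 in KO at 3 h. KO lay below WT before LPS and above WT after it, without overlap at either time. The baseline difference was -0.92 (adjusted p = 0.00405) and the induced difference 0.35 (adjusted p = 0.0806). Slamf8 rose by 1.63 ± 0.09 in WT and 2.90 ± 0.09 in KO, an interaction of 1.27 ± 0.13. A second probe of the gene gave an interaction of 1.20 from a baseline difference of -1.23 and an induced difference of -0.03, so the size of the induced difference depended on the probe.

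Npas4 encodes an activity-dependent bHLH-PAS transcription factor known best from neurons (probe on mm9 chromosome 19, 4984356 to 4984415). Npas4 levels were -2.37 and -2.26 in WT untreated, -4.56 and -4.005 in KO untreated, -4.75 and -4.76 in WT at 3 h and -4.36 and -4.43 in KO at 3 h. WT untreated stood above the other 3 groups, which lay within a narrow range. KO was 3.91-fold lower at baseline (-1.97, adjusted p = 0.0026), and the induced difference was 0.36 (adjusted p = 0.246). Npas4 fell by 2.44 ± 0.18 in WT and changed by -0.11 ± 0.18 in KO (adjusted p = 0.62), an interaction of 2.33 ± 0.25.

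The other 4 called genes were not well above background in at least 1 of the groups, so their folds are lower bounds, set against the lowest signal of a probe well above background on the dim arrays. Vgll4, a TEAD cofactor of the Hippo pathway (mm9 chromosome 6, 114871350 to 114871409), had levels of -3.31 and -3.21 in WT untreated, -2.42 and -2.39 in KO untreated and -6.40 and -6.27 in WT at 3 h. At 3 h KO was not well above background (-7.006 and -7.005). Vgll4 was 1.80-fold higher in KO at baseline (adjusted p = 0.00609) and at least 1.11-fold lower in KO at 3 h (adjusted p = 0.0424). It fell 8.46-fold in WT and at least 16.9-fold in KO. Ttll2, a member of the tubulin tyrosine ligase-like family (mm9 chromosome 17, 7555255 to 7555314), stood at -5.52 and -5.51 in WT untreated and was not well above background in KO untreated (-8.40 and -8.00). At 3 h its levels were -4.75 and -5.20 in WT and -5.02 and -5.18 in KO, which overlapped. Ttll2 was at least 2.58-fold higher in WT at baseline (adjusted p = 0.00149) and rose 1.46-fold in WT and at least 3.44-fold in KO.

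Sox7, a SoxF transcription factor of endothelial and blood development (mm9 chromosome 14, 64569419 to 64569478), was well above background among the 4 groups only in WT untreated, at -4.88 and -4.75, against -7.33 and -7.12 in KO untreated, -9.25 and -9.13 in WT at 3 h and -8.53 and -8.93 in KO at 3 h. It was at least 4.21-fold higher in WT than in KO at baseline (adjusted p = 0.00224), and it fell at least 4.85-fold in WT. The KO response of Sox7 compares values below background, so its size has no meaning here.

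**Figure D2:**
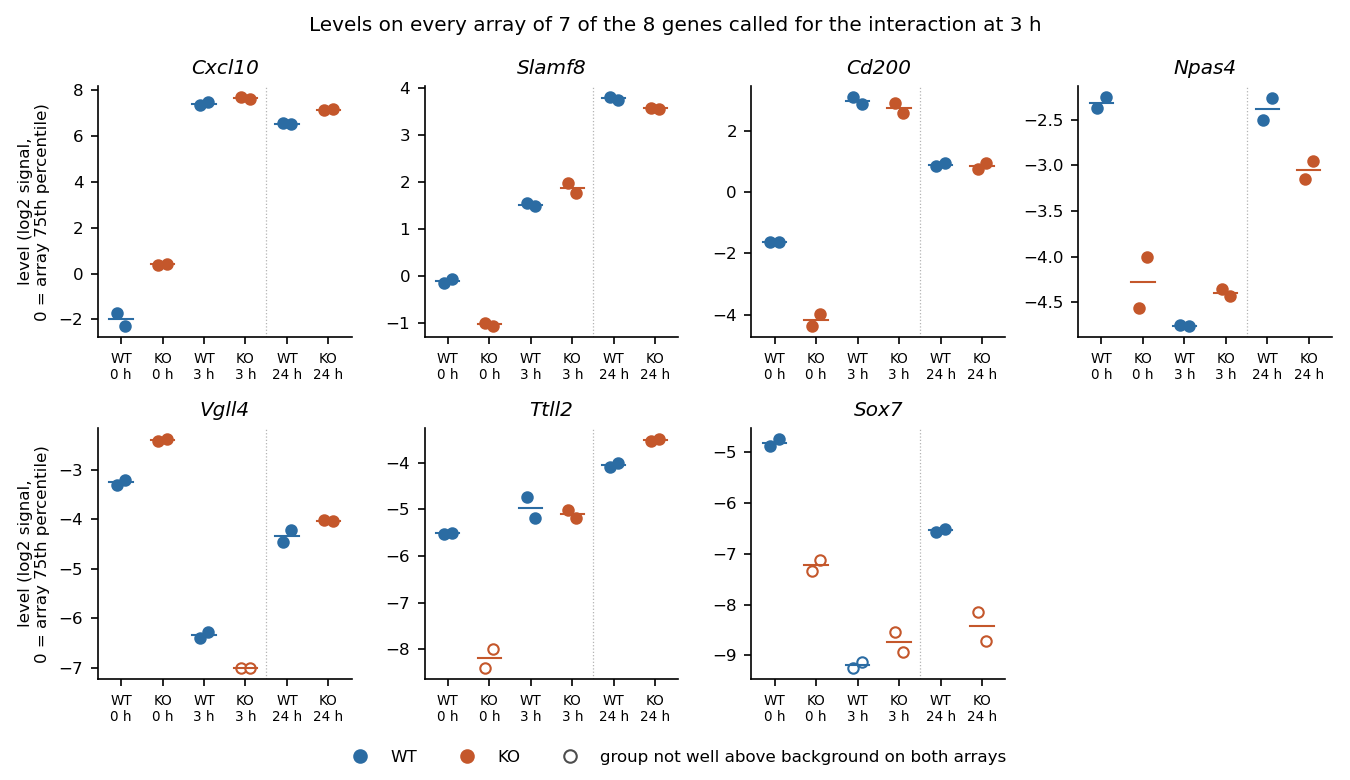
Levels (log2 signal, 0 being the 75th percentile of each array) of 7 of the 8 genes called for the interaction, 1 point per array and 1 panel per gene with its own axis, lines marking group means and open circles groups not well above background on both arrays; the 24 h groups stand to the right of the dotted line. In Cxcl10, Cd200, Ttll2 and Npas4 the KO and WT points are far apart at 0 h and close at 3 h.

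Calls of the interaction depended on how the mice entered the fit. With mouse as a fixed replicate block within genotype, which the labels' pairing allows, no gene passed with limma (0 of 22992, against 3241 at an unadjusted p under 0.05), and the adjusted p of the 7 called genes named here lay between 0.0815 and 0.132. The sign of the interaction was the same for these 7 in every alternative that gave a value. The alternatives reuse the arrays by which the 7 were chosen, so the kept sign is no test of them. Without KO 3 h replicate 2 the count was 372, without KO untreated replicate 2 it was 58, and without KO untreated replicate 1 or KO 3 h replicate 1 it was 0. It was 16 to 21 without WT untreated replicate 2 or either WT 3 h array and 5 without WT untreated replicate 1. Without all arrays of KO mouse 2 it was 153, and without those of KO mouse 1 it was 0. Responses per mouse did not overlap between genotypes in 52.9% of the 22876 genes with a value for each mouse, and the exact permutation test of 2 mice against 2 cannot give a two-sided p below 0.333 for a single gene.

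Among the 24 named genes with the smallest interaction p, the 20 that did not pass had an adjusted p from 0.0531 to 0.0724. Il1b, the gene of interleukin-1 beta, had the largest interaction of them. Its levels were -4.80 and -5.14 in WT untreated, -0.17 and -1.39 in KO untreated, 6.71 and 6.69 in WT at 3 h and 6.996 and 6.74 in KO at 3 h. Untreated KO cells lay 18.2-fold above untreated WT cells (4.19 on the log2 scale, adjusted p = 0.00224), and after LPS the 4 samples lay within a narrow range (0.17, adjusted p = 0.812). The interaction was -4.02 ± 0.50 (adjusted p = 0.0531). Il1rn, which encodes the antagonist that blocks the interleukin-1 receptor, went the other way. Its levels were -1.85 and -1.59 in WT untreated, -3.68 and -3.07 in KO untreated, 3.16 and 3.06 in WT at 3 h and 4.45 and 3.85 in KO at 3 h. KO was lower before LPS (-1.65, adjusted p = 0.0157), while the induced difference of 1.04 did not pass (adjusted p = 0.0735), and the interaction was 2.69 ± 0.37 (adjusted p = 0.0667).

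Egr2, a zinc finger immediate early factor among the 20, stood at 1.77 and 1.90 in WT untreated, -0.46 and -0.09 in KO untreated, 0.91 and 0.70 in WT at 3 h and 0.65 and 0.51 in KO at 3 h. It fell by 1.03 in WT and rose by 0.85 in KO, and the interaction was 1.88 (adjusted p = 0.0531) with a baseline difference of -2.11 (adjusted p = 0.00163). Atf3, which encodes a repressor of TLR responses, rose by 0.80 in WT and by 2.20 in KO, with a baseline difference of -1.10 (adjusted p = 0.00882) and an induced one of 0.29 (adjusted p = 0.247). Hbegf, a ligand of the EGF receptor, had a baseline difference of -1.57 (adjusted p = 0.0115) and an induced one of 0.72 (adjusted p = 0.106). Dusp1, the phosphatase that switches off p38 and JNK, was the second gene called at both times in opposite directions. Levels of Dusp1 were 0.71 and 0.86 in WT untreated, 0.15 and 0.34 in KO untreated, 3.13 and 2.99 in WT at 3 h and 3.68 and 3.63 in KO at 3 h. KO was lower before LPS (-0.54, adjusted p = 0.0274) and higher after it (0.59, adjusted p = 0.0471), with an interaction of 1.13 (adjusted p = 0.0667).

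Of the rest of the 20, Mmp13, a collagenase, had a baseline difference of -0.94 (adjusted p = 0.0118) and an induced one of 0.68 (adjusted p = 0.0506), and it rose by 6.56 in WT and 8.18 in KO. Fzd7 (a Wnt receptor), Siglecf (a sialic acid receptor), Rps6ka3 (the kinase RSK2), Prag1, Myo1e, Dlg3, Mdn1, Mfap3l and Iglon5 had interactions between 0.97 and 1.69 with lower baselines in KO. Sowaha, Tmem86a and Cytip had negative interactions (-1.41, -0.99 and -1.11) with higher baselines in KO. Zfp108, a zinc finger gene, was the only one of the 24 called for the induced level alone. Its levels were -3.45 and -3.47 in WT untreated, -3.21 and -3.21 in KO untreated, -5.31 and -5.32 in WT at 3 h and -5.76 and -5.72 in KO at 3 h, with an induced difference of -0.43 (adjusted p = 0.0424). These genes were taken by their p, so the separation of the mice in the plot of responses by mouse follows from the choice.

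**Figure D3:**
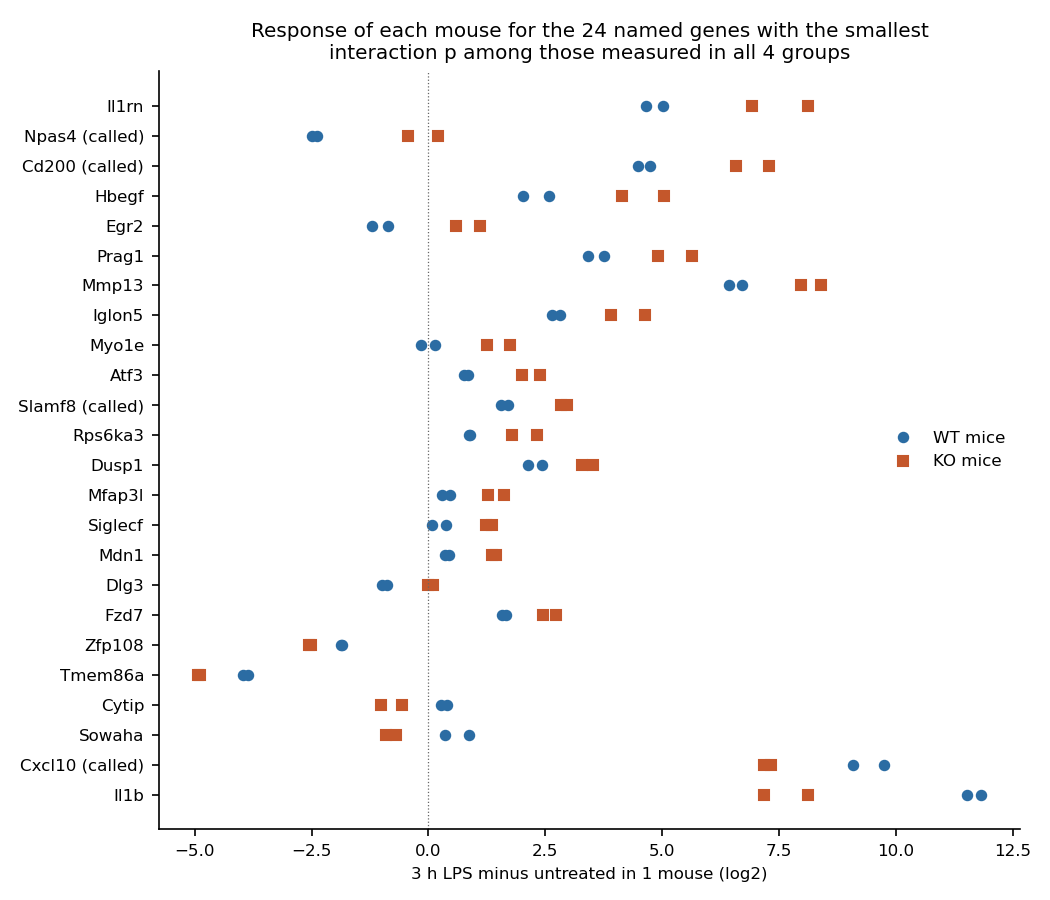
Change from untreated to 3 h of LPS in each mouse (log2, horizontal axis) for the 24 named genes with the smallest interaction p among those measured in all 4 groups, circles for the 2 WT mice and squares for the 2 KO mice. In Il1b the rise is 11.52 and 11.82 in WT and 7.17 and 8.13 in KO, and in Cxcl10 9.08 and 9.75 against 7.32 and 7.18.

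Gene lists were read through the median and the counts of their members beside all genes, for which the median interaction was -0.01. Cxcl10 was the only called member of any list. Beside the counts of members, 3.73% of all genes were higher and 3.01% lower in KO at baseline, and 1.06% were higher and 0.6% lower at 3 h. Inflammatory cytokines rose in full, 24 of 24 in both genotypes, and their median interaction was -0.03, with 5 members positive and 4 negative at an unadjusted p under 0.05. The median turned sign with the setting, from -0.27 with division by the spike-in slope to 0.10 with normexp, and from -0.15 without KO 3 h replicate 1 to 0.09 without KO 3 h replicate 2. KO was higher at baseline in 4 members and lower in 1, and higher at the induced level in 1, Csf3. The 4 became 9 with division by the spike-in slope, 1 on the 8 arrays alone, with no filter on dim probes and without either KO untreated array, either WT 3 h array, WT untreated replicate 2 or KO mouse 1, 2 without WT untreated replicate 1 and 0 without either WT mouse. The 1 at 3 h became 6 without KO 3 h replicate 2 or KO mouse 2 and 0 with any other array or mouse left out. Tnf, the gene of tumour necrosis factor, rose by 7.73 in WT and 8.65 in KO, with an interaction of 0.92 (adjusted p = 0.364). Il6 rose from below background in both genotypes to 3.59 and 3.92 in WT and 4.05 and 3.89 in KO, and the samples overlapped.

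Of 23 chemokines, 20 rose in WT and 19 in KO, and the median interaction was -0.22. The median was -0.51 with division by the spike-in slope and -0.10 with normexp, and it ran from -0.59 without WT mouse 1 to -0.04 without WT mouse 2. At baseline KO was higher in 6 and lower in 4, and at the induced level 1 was higher. The baseline counts became 4 and 2 on the 8 arrays alone, 5 and 2 with no filter on dim probes, 3 and 0 without WT untreated replicate 2, 3 and 1 without KO untreated replicate 1, 4 and 1 without KO mouse 1, 5 and 2 without either WT 3 h array, and 1 and 0 or 2 and 0 without WT mouse 1 or 2. The 1 at 3 h became 2 without KO 3 h replicate 2, 3 without KO mouse 2 and 0 with any other array or mouse left out. Members with large interactions had either sign. Ccl4, an attractant of monocytes and T cells, had levels of 2.98 and 3.45 in WT untreated and 1.09 and 1.90 in KO untreated, and 7.32 and 7.38 in WT and 7.67 and 7.56 in KO at 3 h. Its baseline difference was -1.73 (adjusted p = 0.0123) and its interaction 1.99 (adjusted p = 0.101). Ccl2, the monocyte attractant, had a baseline difference of -2.32 (adjusted p = 0.0296) and an induced one of -0.02, with an interaction of 2.30 (adjusted p = 0.212), and Ccl3 had an interaction of 1.45 (adjusted p = 0.126). Ccl5, which interferon induces as it does Cxcl10, went the other way, with levels of -0.47 and -1.03 in WT untreated, 1.20 and 0.60 in KO untreated, 7.53 and 7.63 in WT at 3 h and 7.85 and 7.75 in KO at 3 h. Its baseline difference was 1.65 (adjusted p = 0.00914), its induced one 0.22 (adjusted p = 0.572) and its interaction -1.43 (adjusted p = 0.126).

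Interferon-stimulated genes were higher in KO before LPS in 21 of 41 members (median 0.62 over the list) and after 3 h in 2 (median 0.44), with none lower at either time. All 41 rose in both genotypes, by a median of 3.78 in WT and 3.47 in KO. The median interaction was -0.23, with 10 members negative and 2 positive at an unadjusted p under 0.05. Ifit1, an inhibitor of viral RNA translation, showed levels of -2.09 and -2.20 in WT untreated, -0.92 and -0.42 in KO untreated, 6.57 and 6.64 in WT at 3 h and 6.95 and 6.63 in KO at 3 h. The untreated groups did not overlap (1.48, adjusted p = 0.00577) and those at 3 h did. Gbp5, a guanylate-binding GTPase, was higher in KO at baseline by 1.79 (adjusted p = 0.0026), with an interaction of -1.24. The 2 members called at 3 h were Oas2, which makes the activator of RNase L and was higher in KO at both times (0.94 and 0.84), and Dhx58, the RNA sensor LGP2, which was called at 3 h alone (0.68, adjusted p = 0.0449). Of 32 members with a promoter in the table, 18 (56.2%) held the ISRE that Cxcl10 and Slamf8 also held. The count of 21 was 5 without WT untreated replicate 2, 10 without KO untreated replicate 1, 12 without WT untreated replicate 1 and 0 without either WT mouse, and the 2 at 3 h became 17 without KO 3 h replicate 2, 23 without KO mouse 2 and 0 with any other array or mouse left out. With the 8 arrays alone the counts were 11 and 0, without the filter on dim probes 12 and 0, and with normexp background correction 28 and 13. Over all arrays and mice left out the median interaction ran from -0.47 to -0.01, the latter without KO mouse 2. Over the scalings, normexp and the deposited value table it ran from -0.54 to -0.21, and the median at 3 h from 0.07 to 0.44.

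MHC class II and costimulation genes held a genotype difference both before and after LPS. KO was higher in 10 of 15 before LPS (median 0.80) and in 7 after it (median 0.43), with none lower and no member called for the interaction (median -0.17). H2-Aa, an MHC class II chain, had levels of -3.16 and -3.84 in WT untreated, -0.72 and -1.61 in KO untreated, -3.06 and -3.21 in WT at 3 h and -0.37 and -1.30 in KO at 3 h. The difference was 2.34 before LPS (adjusted p = 0.0168) and 2.30 after it (adjusted p = 0.0424), and the interaction -0.04. Cd74, the invariant chain that escorts class II molecules, differed by 2.27 and 1.91. Cd80 and Icosl, ligands of T cell costimulatory receptors, behaved otherwise. Cd80 levels were 2.15 and 2.03 in WT untreated, 2.83 and 2.76 in KO untreated, 1.01 and 1.06 in WT at 3 h and 1.15 and 1.02 in KO at 3 h, so a baseline difference of 0.70 (adjusted p = 0.0149) stood beside an induced one of 0.04 (adjusted p = 0.839). The count of 10 was 2 without KO untreated replicate 1 or WT untreated replicate 2 and 0 without either WT mouse, and 9 or 10 otherwise. The 7 at 3 h became 9 without KO 3 h replicate 2 or KO mouse 2, 1 without KO mouse 1 and 0 with any other array or mouse left out, as with the 8 arrays alone (6 before LPS) or without the filter on dim probes (9 before LPS). The median interaction was 0.08 without KO 3 h replicate 2 and 0.02 without KO untreated replicate 1.

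Markers of other cells moved beside these genes. B cell markers, of which 6 of 7 were tested, had a summed log2 level of -0.39 to -0.26 in WT untreated, 0.69 to 0.75 in KO untreated, -1.07 to -0.66 in WT at 3 h and -0.32 to -0.21 in KO at 3 h. Nearly all of this sum was Cd79b, a chain of the B cell receptor, which stood at -0.52 and -0.36 in WT untreated and 0.69 and 0.64 in KO untreated. It was the 1 member called at baseline (1.10, adjusted p = 0.0115). The baseline differences of the 6 ran from -0.94 to 1.10, with 4 positive, and that of Cd79a, the partner chain, was 0.36 (adjusted p = 0.478). For dendritic cell markers (8 of 10 tested) the sum was 4.18 to 4.34, 4.33 to 4.49, 4.81 to 4.99 and 5.10 to 5.26 in the same order. The untreated sums overlapped, and 3 of the 8 had a positive baseline difference (median -0.06). The 1 called at baseline, Itgax, was lower in KO (-1.34, limma adjusted p = 0.0273). Macrophage markers summed to 8.21 to 8.31, 8.44 to 8.50, 8.62 to 8.64 and 8.78 to 9.02 in that order. Of these 10 markers, 6 had a positive baseline difference (range -0.39 to 0.60). At 3 h 9 were positive, and the 1 called was lower in KO (-0.63). Osteoclast markers (6 of 6 tested) summed to 2.57 to 2.79 in WT untreated and 1.94 to 2.185 in KO untreated. At 3 h their sums overlapped, at 6.095 to 6.39 in WT and 6.23 to 6.56 in KO. Erythroid markers (3 of 8 tested) summed to 0.64 to 0.77 in WT untreated and 0.022 to 0.024 in KO untreated. The 1 called at baseline, Tfrc, was lower in KO (-1.30, limma adjusted p = 0.0162). However, 2 of the 3 had a positive baseline difference (median 0.12). Eosinophil markers (3 of 5 tested, Siglecf among them) summed to -0.07 to 0.15 in WT untreated, -0.94 to -0.62 in KO untreated, 1.00 to 1.01 in WT at 3 h and 1.27 to 1.32 in KO at 3 h. Neutrophil markers (9 tested) had a median baseline difference of -0.91, with 1 positive. Mast cell and basophil markers (3 tested) had -1.13, and T and NK cell markers (4 tested) -0.13, with 0 positive in each. Stromal markers (5 tested) had 0.19 and megakaryocyte markers (3 tested) 0.27, with all positive. The part of these cell types in the gene differences was not tested.

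MAP kinase and cytokine feedback inhibitors had a median interaction of 0.62, with 10 of 19 members positive and 2 negative at an unadjusted p under 0.05 (all genes 6.59% and 5.84%). The median was 0.38 with division by the spike-in slope and 0.41 with normexp. KO was lower at baseline in 4 and higher in 3, and higher at 3 h in 2. The baseline counts became 1 and 2 on the 8 arrays alone, with no filter on dim probes, and without KO untreated replicate 1, WT untreated replicate 2 or either WT 3 h array, 2 and 2 without WT untreated replicate 1 or KO mouse 1, 6 and 4 without KO mouse 2 and 0 and 0 without either WT mouse. The 2 at 3 h became 5 without KO 3 h replicate 2 or KO mouse 2, 1 without WT 3 h replicate 2, and 0 on the 8 arrays alone, with no filter on dim probes or with any other array or mouse left out. The 2 higher at 3 h were Dusp1, given above, and Socs1, the inhibitor of JAK kinases. Socs1 had levels of -1.83 and -1.89 in WT untreated, -1.79 and -1.67 in KO untreated, 5.08 and 5.34 in WT at 3 h and 6.07 and 5.95 in KO at 3 h. Its baseline difference was 0.13 (adjusted p = 0.484) and its induced one 0.79 (adjusted p = 0.0404), the pattern of a different induced level, with an interaction of 0.66 that did not pass. Socs3, the inhibitor of signalling by interleukin-6, showed the other pattern. Its levels were 0.45 and -0.12 in WT untreated, 2.52 and 1.86 in KO untreated, 7.21 and 7.29 in WT at 3 h and 7.53 and 7.38 in KO at 3 h, with a baseline difference of 2.03 (adjusted p = 0.00556) and an interaction of -1.82 (adjusted p = 0.101). Dusp4, a nuclear MAP kinase phosphatase, was lower in KO at baseline (-2.17, adjusted p = 0.00448), with an interaction of 1.63 (adjusted p = 0.116). Spred1, an inhibitor of Ras signalling, had an interaction of 1.27 (adjusted p = 0.0751).

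Immediate early and AP-1 genes had a median interaction of 0.00, with 7 of 24 members positive and 3 negative at an unadjusted p under 0.05. At baseline KO was higher in 2 and lower in 4, and no member was called at 3 h. These baseline counts became 1 and 2 without KO untreated replicate 1, 1 and 1 without WT untreated replicate 2, 4 and 5 without either KO 3 h array, 3 and 2 without KO mouse 1, 7 and 4 without KO mouse 2, 0 and 0 without either WT mouse, and 5 and 4 with quantile normalization or scaling on detected probes. At 3 h 3 were higher without KO 3 h replicate 2 and 5 without KO mouse 2. Myc, the growth-promoting transcription factor, had levels of -2.04 and -1.03 in WT untreated, -3.80 and -3.15 in KO untreated, -2.17 and -2.39 in WT at 3 h and -1.85 and -2.10 in KO at 3 h. Its baseline difference was -1.94 (adjusted p = 0.0288), its induced one 0.30 (adjusted p = 0.675) and its interaction 2.24 (adjusted p = 0.16).

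Sterol synthesis and uptake genes were lower in KO before LPS in 10 of 22 members and differed in none after 3 h. The median over the list was -0.60 untreated, -0.08 at 3 h and 0.66 for the interaction, with 11 members positive and 0 negative at an unadjusted p under 0.05. The median response was -0.10 in WT and 0.39 in KO. Sqle, which encodes squalene epoxidase, had levels of 3.32 and 3.75 in WT untreated, 2.20 and 2.69 in KO untreated, 3.13 and 3.24 in WT at 3 h and 2.75 and 2.97 in KO at 3 h. Its baseline difference of -1.09 (adjusted p = 0.023) stood beside an induced one of -0.32. Acat2, a thiolase of the pathway's first step, had the largest interaction of the list at 1.05 (adjusted p = 0.247). The count of 10 was 0 without KO untreated replicate 1, WT untreated replicate 2, KO mouse 1 or either WT mouse, 4 without either WT 3 h array and 6 without WT untreated replicate 1. It was 2 with the 8 arrays alone and 1 without the filter on dim probes. Over the scalings, normexp and the deposited value table it ran from 10 to 14. Over these same settings the median at 3 h ran from -0.26 to -0.08, with up to 4 members lower and up to 1 higher in KO. The absence of calls at 3 h thus depended on the scaling. At 3 h, 1 member was higher and 3 lower in KO without KO 3 h replicate 2 or without KO mouse 2. Over all arrays and mice left out the median interaction was 0.38 to 0.82. No match to the sterol response element was found in the 14 promoters available for the list. Only 0.196% of all promoters held this match, so 14 promoters are too few to read anything from its absence.

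FOXO and p53 targets had a median interaction of -0.35, with 7 of 16 members negative and 1 positive at an unadjusted p under 0.05. The median ran from -0.56 without WT untreated replicate 1 to -0.25 without WT untreated replicate 2. At baseline 5 were higher in KO and none lower, and at 3 h 1 was higher. The 5 became 0 without KO untreated replicate 1, KO mouse 1 or either WT mouse, 1 without WT untreated replicate 2, 3 without either WT 3 h array or on the 8 arrays alone, 2 without the filter on dim probes and 8 with normexp. At 3 h 1 was higher and 2 lower without KO 3 h replicate 2 or KO mouse 2, and none was called with any other array or mouse left out. The list fell in most members, 11 in WT and 12 in KO, by a median response of -0.66 and -1.42. Bmf, a BH3-only inducer of apoptosis, stood at 1.29 and 0.44 in WT untreated, 2.75 and 1.97 in KO untreated, -4.64 and -4.94 in WT at 3 h and -4.85 and -5.03 in KO at 3 h. It was higher in KO at baseline (1.495, adjusted p = 0.0462), with an induced difference of -0.15 and an interaction of -1.64 (adjusted p = 0.235). Txnip, an inhibitor of glucose uptake, had a baseline difference of 0.63 (adjusted p = 0.0835) and an induced one of -0.52 (adjusted p = 0.145), so both contributed to its interaction of -1.14 (adjusted p = 0.143). Slc2a1, the glucose transporter GLUT1 of the glycolysis and hypoxia list, had the opposite sign, with levels of 1.76 and 1.79 in WT untreated, 0.90 and 1.07 in KO untreated, 3.40 and 3.23 in WT at 3 h and 3.80 and 3.51 in KO at 3 h. Its interaction was 1.12 (adjusted p = 0.0751) and its baseline difference -0.79 (adjusted p = 0.0143). Over that list of 30 genes the median interaction was 0.12, with 5 positive and 0 negative at an unadjusted p under 0.05.

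**Figure D4:**
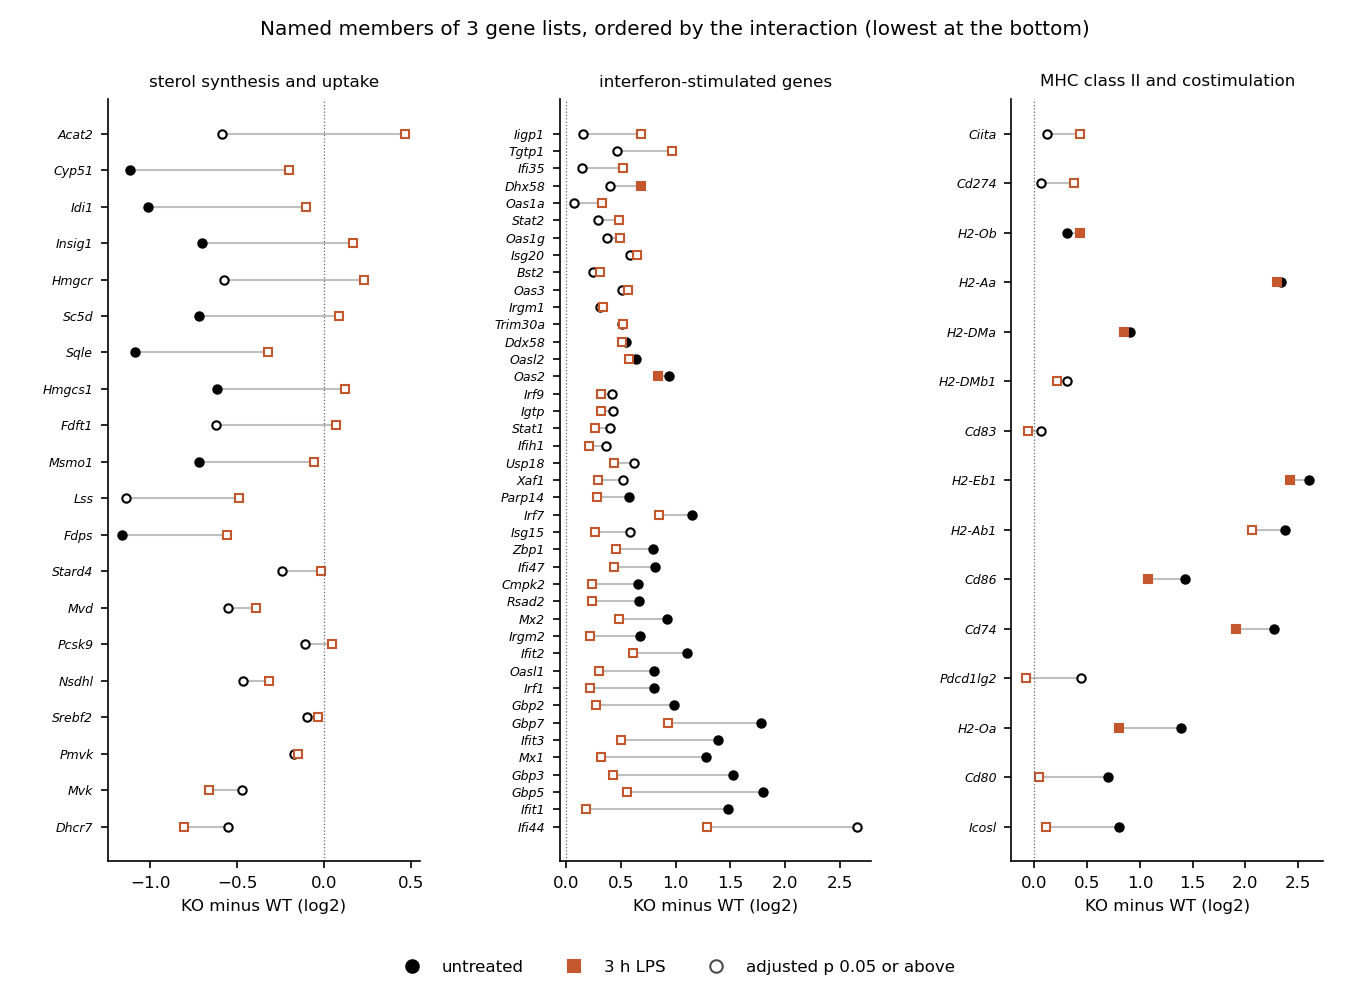
KO minus WT (log2) in untreated cells (black circles) and after 3 h of LPS (orange squares) for the named members of 3 gene lists, ordered by the interaction, filled where the adjusted p was under 0.05. All of the sterol genes lie below 0 before LPS and most lie nearer to 0 after it. Class II genes such as H2-Aa (2.34 and 2.30) lie at about the same place at both times.

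NF-kB subunits, inhibitors and targets rose in all 24 members in both genotypes, and the median interaction was 0.14 with 3 positive and 4 negative at an unadjusted p under 0.05. KO was higher in 6 of them at baseline, among them Nfkbia, the inhibitor IkB alpha, by 0.84 (adjusted p = 0.00824). None was called at 3 h, where all 24 differences lay above 0 (median 0.27), beside 12597 of 22992 genes. Of these members, 13 were higher in KO at 3 h at an unadjusted limma p under 0.05, beside 3198 of all genes. Over the scalings, normexp and the deposited value table the median at 3 h ran from -0.06 to 0.27. The median interaction turned to -0.07 with division by the spike-in slope and ran from 0.01 without KO 3 h replicate 1 to 0.24 without KO 3 h replicate 2. The baseline count of 6 was 0 without KO untreated replicate 1 or either WT mouse, 1 without WT untreated replicate 2 and 2 without KO mouse 1, and at 3 h 5 members were higher without KO 3 h replicate 2 and 9 without KO mouse 2. TLR4 signalling genes had a median interaction of 0.02 (1 positive and 3 negative of 24), and Ticam2, the adaptor TRAM, had the largest one at -0.71 (adjusted p = 0.0751). The 21 COMMD, CCC, retriever and WASH subunits had a median of -0.06 with 1 positive and 1 negative, and Commd1 was their only call at either time. Unfolded protein response and ATF4 targets had a median of 0.11 with 4 of 16 positive, led by Chac1, an enzyme that degrades glutathione, at 2.17 (adjusted p = 0.0873). DNA replication genes had a median interaction of 0.32 beside baseline and induced medians of -1.05 and -0.66, but the interaction was -0.17 without KO 3 h replicate 2 and -0.02 without KO untreated replicate 1. Medians of antimicrobial and tissue effectors, alternative activation, copper handling, heat shock, NRF2 targets, mitosis, lysosome, LXR targets and the respiratory chain lay between -0.16 and 0.08, and the respiratory chain and mitosis had 0 members at an unadjusted p under 0.05. Over the scalings, normexp and the deposited value table the median of antimicrobial and tissue effectors ran from -0.56 to 0.002. With an array or mouse left out it ran from -0.41 to -0.02, and that of mitosis from -0.23 to 0.29.

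**Figure D5:**
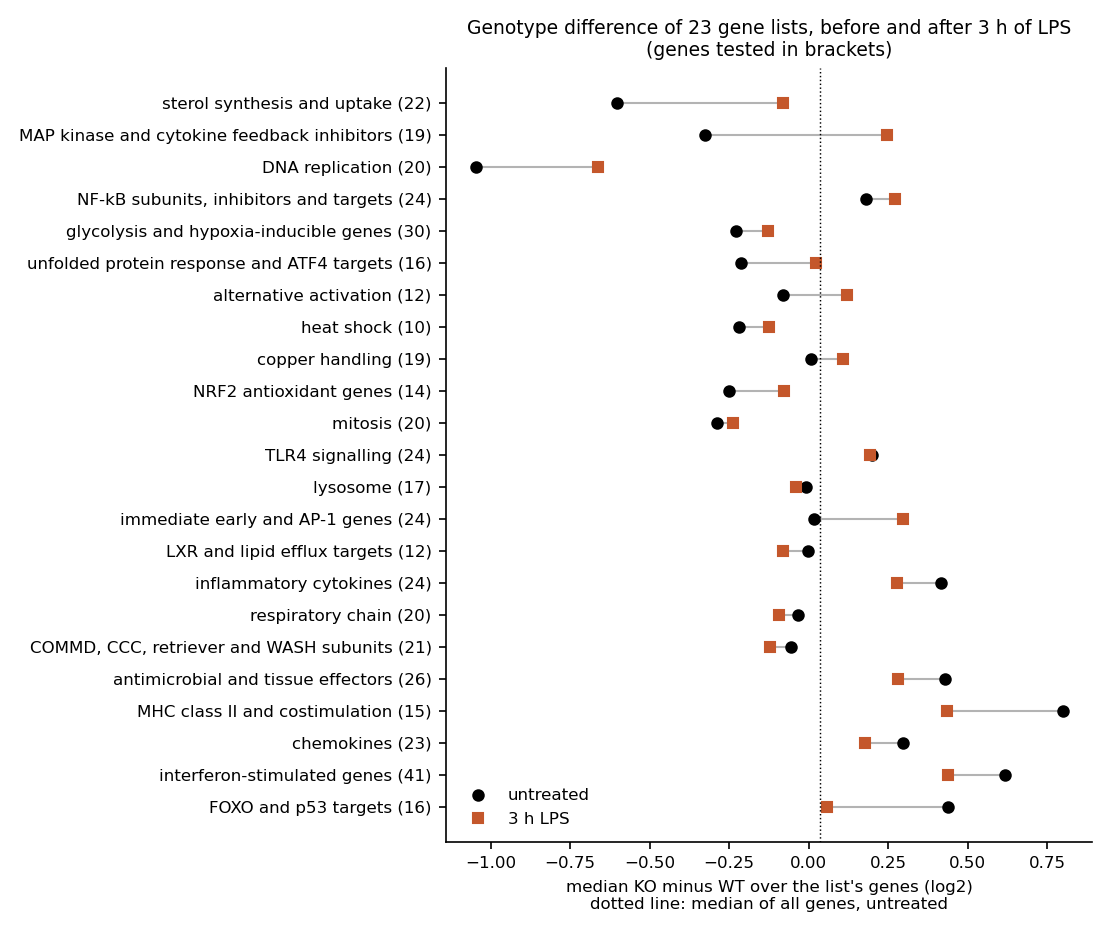
Median KO minus WT (log2) over the genes of 23 lists, in untreated cells (black circles) and after 3 h of LPS (orange squares), ordered by the median interaction, the dotted line marking the median of all genes in untreated cells. The sterol list moves from -0.60 to -0.08, the interferon-stimulated list from 0.62 to 0.44 and the FOXO and p53 list from 0.44 to 0.06.

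The 24 h arrays entered the 3 h interaction through its spread and through the filter on dim probes (22903 of the 22992 genes tested were well above background in any of the 4 groups), and they gave the genotype difference of the same genes later. KO minus WT at 24 h was 0.61 in Cxcl10 (limma adjusted p = 0.0888), -0.04 in Cd200 (0.92), -0.21 in Slamf8 (0.244), -0.67 in Npas4 (0.0839), 0.31 in Vgll4 (0.13) and 0.53 in Ttll2 (0.13). Sox7 was called at 24 h, where it was well above background in WT only. Il1b differed by -0.50 (adjusted p = 0.448) and Il1rn did not pass either. Over all genes KO against WT at 24 h gave 550 calls (2.39% of genes), and 1116 of the 1418 genes called in untreated cells (78.7%) had the same sign at 24 h, with a median absolute difference of 0.28.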

How the data were processed

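RNA of 12 samples was measured on 12 one-colour Agilent arrays. The deposited scanner files hold, per the file headers, a processed intensity per spot, from which background and a spatial trend were subtracted without scaling between arrays, made with Agilent Feature Extraction 10.7.3.1 per the submitters' processing notes. The deposited value table holds log2 values that differ from the same array's log2 processed signal by 1 constant per array (to within 0.01 for nearly all probes well above background), with dim probes at a floor. It served as an alternative.

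Control and outlier spots were left out, spots of a probe were averaged, and each array's 75th percentile of log2 intensity was subtracted, which gave 39429 probes. Probes that were well above background on the 2 arrays of any of the 6 groups were kept (28446), and each gene was read from its probe of highest mean (22994 genes, 18056 with a RefSeq symbol). All 12 arrays were fitted in limma 3.58.1 (R 4.3.3, statmod 1.5.0) with 1 mean per group, 6 residual and 2.23 prior degrees of freedom, two-sided tests and Benjamini-Hochberg adjustment over all genes. An interaction needed a value in all 4 groups (22992 genes). The fit was tested on simulated data. Summaries and figures used Python 3.11.15, matplotlib 3.10.9, numpy 2.4.6 and pandas 2.3.3.

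Per the labels, a replicate number is 1 mouse within its genotype, which pairs the samples. Across genes the residuals of a mouse's untreated and 3 h arrays correlated with r of 0.18 (WT) and 0.35 (KO), and the pairs with the 24 h array had r between 0.12 and 0.15. The number of arrays limits the precision. Coordinates of probes are mm9, as in the files. Exons and UTRs were not annotated here.

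Named genes were, of RefSeq symbols, the called genes measured in all 4 groups filled up to 24 by p, the called genes below background in a group, the members of each list with the largest interaction, and Commd1. Some genes that this rule names are not reported here, while counts and medians include them. Other list members were chosen after their values were seen. The comparison, the lists and the alternatives were chosen with earlier results of these data known. Alternatives were 3 other scalings, normexp with an offset of 50, 2 other filters, the mean over probes, the 8 arrays alone, mouse as a fixed or random block, the deposited value table, and leaving out each array or mouse.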

Additional observations from a re-analysis of the deposited data

Results flagged for a closer look

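The test of the difference between the genotypes' responses is itself the comparison here, and it singled out 8 genes. Among them the interaction, KO response minus WT response on the log2 scale, was -2.17 for Cxcl10, 2.31 for Cd200, 1.27 for Slamf8, 2.33 for Npas4, -1.52 for Vgll4, 2.55 for Ttll2 and 2.87 for Sox7, each with a limma adjusted p of 0.0319. For Vgll4, Ttll2 and Sox7 these values include signals not well above background and are no measure of size.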

How the results depend on the processing

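Counts of calls moved most. The 8 interaction calls became 12 with scaling on probes detected on all arrays, 19 with division by the spike-in slope, 108 with normexp, 29 with only probes above background on all 8 arrays, 21 with mouse as a random replicate block and 39 with the deposited value table. They became 0 with no filter (2894 at an unadjusted p under 0.05), on the 8 arrays alone (2863) and with mouse as a fixed replicate block (3241), and 0 to 372 with an array or mouse left out (153 without KO mouse 2, 58 without KO untreated replicate 2). The 7 called for the baseline alone became 14 (spike-in slope), 63 (normexp), 21 (filter), 18 (random block) and 32 (value table), 0 with no filter and on the 8 arrays, and 0 to 64 on leaving out. The 1550 baseline calls became 6385 with the spike-in slope, 2573 with normexp, 453 with no filter and 548 on the 8 arrays, and 14 to 2782 on leaving out. The 381 calls at 3 h became 5295, 1734, 0 (6052 unadjusted) and 0 (5471) in that order, 1130 with the stricter filter, 805 with the value table and 3 to 4161 on leaving out. With an array or mouse left out, the WT response gave 4740 to 12085 calls (10694 as reported) and the KO response 9728 to 11765 (11977 as reported).

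Scaling on detected probes turned the split at 3 h to 250 higher and 261 lower (48.9% higher, from 63.8%), that of the WT response to 4279 and 6529 (39.6%, from 49.9%) and that of the KO response to 4744 and 7360 (39.2%, from 50.6%). Quantile normalization gave 5 positive and 3 negative interactions (62.5%) and the spike-in slope 57.9% positive, from 75%. The median of all genes moved to 0.14 at baseline with the spike-in slope, to -0.08 (WT) and -0.09 (KO response) with detected probes, and to -0.07 (KO) with quantile normalization.

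Interactions of the 7 called genes named here and of the 20 next to them kept their direction in all alternatives that gave a value. These genes were chosen by their p, and the alternatives reuse the same arrays, so the kept direction is a description and no test. Of the other named genes, 7 markers that were not called (adjusted p above 0.7) turned direction with an array or mouse left out, over which the interaction ran from -0.19 to 1.01 for Ltf, -0.39 to 0.82 for Cd79a, -0.11 to 0.45 for Tfrc, -0.027 to 1.95 for Dcstamp, -0.46 to 0.0034 for Gp1bb, -0.35 to 1.24 for Tpsb2 and -0.23 to 0.65 for Col1a1. The cause of these moves was not tested, and low signal over background limits Vgll4, Ttll2 and Sox7.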
